A study of Mus musculus with 8 samples.

Results

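The medial ganglionic eminence is the ventral embryonic zone that gives rise to the parvalbumin and somatostatin neurons of the cortex. Described here are 9 of its transcriptional regulators, Nkx2-1, Lhx6, Lhx8, Sox6, Satb1, Maf, Etv1, Mef2c and Ppargc1a, chosen by gene symbol among the 55450 genes counted in sorted GABAergic nuclei of mouse cortex. All 9 had at least 1 count in some library, and 7 passed the filter on low counts that left 16448 tested genes. Nkx2-1 and Lhx8 did not pass it.

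The libraries came from nuclear RNA of fluorescent nuclei that a cell sorter took from the frozen cortex of single juvenile mice. In every mouse of both groups a Cre driver, not named in the labels, switched on a loxP-controlled nuclear fluorescent reporter in GABAergic neurons. Mutants (Thra+/AMI) also expressed, under the same Cre, a Thra allele that encodes a dominant-negative thyroid hormone receptor, whereas controls were Thra+/+. The question put to these 9 genes was whether blocking the hormone receptor inside GABAergic neurons leaves their regulators at control levels. The tables of mutants 7 and 10 were identical and were counted as 1 library, so that 4 controls (1 to 4) were compared with 3 mutants (6, 7 and 8), with no age, sex or litter given in the labels. The p-values set the difference between the groups against the spread between these cortices.

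Nkx2-1 sets the identity of the eminence and switches on Lhx6, a LIM-homeodomain factor that its interneurons keep into adult life. Lhx6 acts upstream of Sox6 and Satb1, and loss of these factors impairs the migration, subtype identity and maturation of parvalbumin and somatostatin neurons. Ppargc1a encodes PGC-1α, a coactivator of mitochondrial and synaptic genes that is concentrated in parvalbumin neurons and appears as they mature. Thyroid hormone receptors bind DNA at the core AGGTCA, best at a direct repeat of it with a 4-base gap.

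Markers of the labelled cell type were present in every library. Gad2, an enzyme of GABA synthesis, averaged 402.7 ± 15.03 CPM (counts scaled to the library total and TMM factors) over the 4 controls and 434.6 ± 65.27 CPM over the 3 mutants (SD). The summed level of 6 GABAergic markers was 2140 to 2520 CPM in controls and 2100 to 2530 CPM in mutants, and 0 of the 5 tested were called. Dlx1, which lies wholly inside another gene, is listed at 0 in every library and was not measurable. Markers of other cells were counted in both groups: 9 glutamatergic markers summed to 245 to 346 CPM in controls and 224 to 280 CPM in mutants, and 8 oligodendrocyte markers to 160 to 198 and 176 to 210 CPM. Of the glutamatergic sum, Cux2 held the largest part (163.9 ± 28.24 and 145.7 ± 10.73 CPM), before Slc17a7 (72.12 ± 21.31 and 67.11 ± 18.34 CPM). Whether this RNA came from nuclei of other cells was not tested. Total counts were 10747169 to 13804734 per library, and Y-linked counts were 4 in control 4 and 3 in mutant 8 against 5094 to 6644 in the other 5 libraries.

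Promoter windows from RefSeq (GRCm38.p6, 250 bases before to 50 after a transcription start) are shown for Ppargc1a, the regulator that changed, for Lhx6, the first cortical regulator of the lineage, and for Syt2, a gene listed as dependent on Ppargc1a. Capitals mark every match, on either strand, to 4 motifs: AGGTCA, its direct repeat with a 4-base gap, the cyclic AMP response core TGACG, and TCAAGGTCA, the element of estrogen-related receptors, which are partners of PGC-1α and whose element contains AGGTCA. Each sequence is written 5′ to 3′ on the strand of its gene.
Ppargc1a, chr5:51567676-51567975, minus strand: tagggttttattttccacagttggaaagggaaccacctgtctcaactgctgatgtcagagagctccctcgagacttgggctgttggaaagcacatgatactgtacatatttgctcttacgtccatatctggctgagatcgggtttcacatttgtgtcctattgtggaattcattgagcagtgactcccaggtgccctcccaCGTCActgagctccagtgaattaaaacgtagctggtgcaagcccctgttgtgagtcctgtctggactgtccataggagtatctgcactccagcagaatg
Lhx6, chr2:36105359-36105658, minus strand: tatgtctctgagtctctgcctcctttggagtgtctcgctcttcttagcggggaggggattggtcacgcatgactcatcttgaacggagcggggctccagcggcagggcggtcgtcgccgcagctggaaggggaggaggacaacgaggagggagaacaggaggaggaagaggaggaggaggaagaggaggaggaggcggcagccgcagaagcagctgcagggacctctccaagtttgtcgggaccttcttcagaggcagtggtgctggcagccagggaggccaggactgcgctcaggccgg
Syt2, chr1:134646362-134646661, plus strand: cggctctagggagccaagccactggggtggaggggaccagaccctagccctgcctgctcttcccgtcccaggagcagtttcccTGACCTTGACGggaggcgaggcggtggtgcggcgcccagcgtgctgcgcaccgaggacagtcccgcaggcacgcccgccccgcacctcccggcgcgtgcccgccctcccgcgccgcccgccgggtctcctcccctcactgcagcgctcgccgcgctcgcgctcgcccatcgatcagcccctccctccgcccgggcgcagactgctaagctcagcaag
In the Ppargc1a window the single match is TGACG on the minus strand of the printed sequence, at positions -49 to -45 from the start. The printed Lhx6 window, 1 of 3 for this gene, has no match to these letters. The Syt2 window, 1 of 2 for this gene, is shown for its match, and it alone among the 5 windows of genes listed as dependent on Ppargc1a holds TCAAGGTCA. Its capitals join TCAAGGTCA on the opposite strand (-167 to -159) with an overlapping TGACG (-161 to -157).

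The matches were set against all 32851 promoter windows of the same length. AGGTCA occurred in 16.3% of them, TGACG in 20.8%, TCAAGGTCA in 0.423% and the repeat in 0.0152%. Of the 22 windows of the 8 members in the table, 6 held AGGTCA, in Mef2c, Nkx2-1, Satb1 and Sox6, and 3 held TGACG, in Nkx2-1, Ppargc1a and Sox6. None held the repeat or TCAAGGTCA. GC content was 48.7% in the Ppargc1a window with 5 CpG, 63.3% in the Lhx6 window with 16 CpG and 74.3% in the Syt2 window with 34 CpG, where the median of all windows was 52.7% with 7 CpG. A match is a description of letters and shows no binding. Maf has no entry in the promoter table.

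Of the 7 tested regulators, Ppargc1a fell in mutants and the other 6 were not called in edgeR's quasi-likelihood test (adjusted p under 0.05 over all tested genes). Over all 16448 tested genes 9.42% were called, 4.78% lower and 4.63% higher, so that 1 call in 7 is near the background and speaks for Ppargc1a alone. The median log2 fold change of the 7 was -0.12, with a range from -0.76 to 0.23, against -0.01 over all tested genes. The CPM ranges of the groups did not overlap for Ppargc1a and Lhx6, 2 of 7, where 22.0% of all tested genes had no overlap.

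**Figure D1:**
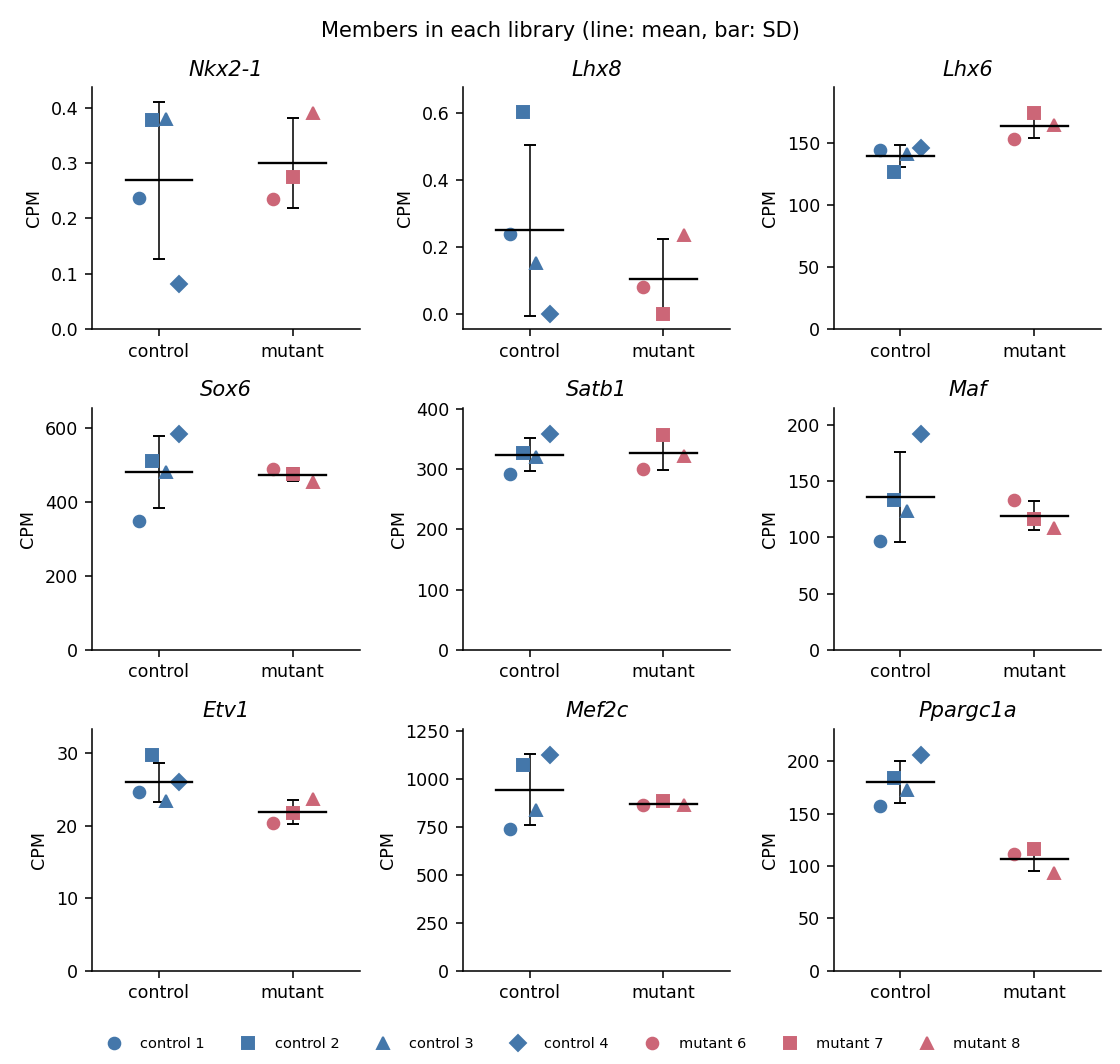
CPM of the 9 regulators in each library (y axis, own scale per gene) by group, with 4 controls in blue and 3 mutants in red. Horizontal lines are group means and vertical bars the SD. Ppargc1a lies between 157.6 and 205.9 CPM in controls and between 93.2 and 115.7 CPM in mutants, and Nkx2-1 and Lhx8 stay under 1 CPM.

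The early patterning factors stood at the limit of detection. Nkx2-1 (ENSMUSG00000001496.15, chromosome 12, 56531958 to 56536908, minus strand) had 3, 5, 5 and 1 reads in controls 1 to 4 and 3, 3 and 5 reads in mutants 6, 7 and 8. Lhx8 (ENSMUSG00000096225.7, chromosome 3, 154306294 to 154330659, minus strand), which in the ventral forebrain directs cholinergic neurons, had 3, 8, 2 and 0 reads in controls and 1, 0 and 3 in mutants. The groups overlapped for both genes. Their means were 0.269 ± 0.142 and 0.248 ± 0.256 CPM in controls, close to the 0.226 to 0.275 CPM that 3 reads amount to, so that no difference was detectable at this depth. Of the Nkx2-1 span 31.6% is shared with another gene, and reads there appear not to be counted.

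Lhx6 (ENSMUSG00000026890.19, chromosome 2, 36081953 to 36105408, minus strand), the lineage factor of both classes of neurons, was at 144.1, 126.8, 141.0 and 145.7 CPM in controls 1 to 4. In mutants 6, 7 and 8 it was at 153.6, 174.1 and 164.3 CPM. Every mutant lay above every control, by a narrow margin between control 4 and mutant 6. The log2 fold change was 0.23 (SE 0.11, 95% interval 0.00 to 0.46) with an unadjusted p of 0.0462 and an adjusted p of 0.212 (edgeR), so the gene was not called. It was called in 2 of 16 alternatives: limma-voom with sample weights (0.27, adjusted p 0.0456), in which 19.1% of all tested genes were called, and the fit without controls 1 and 4 (0.29, adjusted p 0.0353), in which 16.7% were, with adjusted p-values from 0.0353 to 0.508 over all 16.

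Sox6, an SRY-box factor downstream of Lhx6 (ENSMUSG00000051910.13, chromosome 7, 115470872 to 116038796, minus strand), was at 349.8, 511.4, 481.7 and 584.1 CPM in controls and 489.6, 476.3 and 454.8 CPM in mutants. Control 1 was the lowest and control 4 the highest of the 7 libraries, and all mutants lay between them. The log2 fold change was -0.02 (SE 0.17, 95% interval -0.40 to 0.35, edgeR adjusted p 0.961), and its sign turned without control 4 (0.08) or without mutant 8 (0.01).

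Satb1, a chromatin organiser that acts in maturing somatostatin neurons (ENSMUSG00000023927.15, chromosome 17, 51736187 to 51833290, minus strand), was at 292.3, 326.4, 319.6 and 358.2 CPM in controls. In mutants it was at 301.0, 355.8 and 322.0 CPM, wholly within the control range. The log2 fold change was 0.01 (SE 0.13, 95% interval -0.27 to 0.29, edgeR adjusted p 0.981), and it was -0.03 without control 1 and -0.05 without mutant 7. The value of Ppargc1a, -0.76 (95% interval -1.03 to -0.48), lies outside the 95% intervals of both Sox6 and Satb1. It also lies outside those of the other tested regulators, but the interval of Ppargc1a overlaps those of Maf, Etv1 and Mef2c.

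Maf, a bZIP factor that acts in the specification and maturation of the lineage (ENSMUSG00000055435.6, chromosome 8, 115682942 to 115707794, minus strand), was at 96.5, 132.9, 123.2 and 192.0 CPM in controls. In mutants it was at 133.2, 116.5 and 108.6 CPM. The mutants again lay between control 1 and control 4. The log2 fold change of -0.19 (SE 0.19, 95% interval -0.60 to 0.23, edgeR adjusted p 0.633) rested on control 4, without which it was 0.02.

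Among the later factors, Etv1 is an ETS factor that sets the excitability of parvalbumin basket cells, and Mef2c is a MADS-box factor of activity-dependent transcription. Etv1 (ENSMUSG00000004151.17, chromosome 12, 38779380 to 38870484, plus strand) was at 24.6, 29.8, 23.5 and 26.1 CPM in controls and 20.4, 21.7 and 23.7 CPM in mutants, with an overlap of mutant 8 and control 3. Its log2 fold change was -0.25 (SE 0.14, 95% interval -0.54 to 0.05, edgeR adjusted p 0.32).

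Mef2c, the most counted of the 9 (ENSMUSG00000005583.16, chromosome 13, 83504034 to 83667080, plus strand), was at 740.4, 1074, 841.0 and 1127 CPM in controls and 866.5, 883.9 and 864.4 CPM in mutants. The mutants were tightly grouped inside the control range, with a coefficient of variation of 1.23% against 19.5% in controls. The log2 fold change was -0.12 (SE 0.18, 95% interval -0.51 to 0.27, edgeR adjusted p 0.774). Not called is not the same as unchanged: for Maf, Etv1 and Mef2c the intervals still hold falls of 0.5 or more on the log2 scale.

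Ppargc1a, whose promoter is printed above (ENSMUSG00000029167.13, chromosome 5, 51454250 to 51567726, minus strand), had 1991, 2441, 2267 and 2557 reads in controls and 1420, 1262 and 1194 reads in mutants. These correspond to 157.6, 184.2, 172.3 and 205.9 CPM in controls 1 to 4 and to 110.9, 115.7 and 93.2 CPM in mutants 6, 7 and 8. Every mutant lay below every control. The mean went from 180.0 ± 20.4 CPM over 4 controls to 106.6 ± 11.8 CPM over 3 mutants (SD), which is 59.2% of the control level. The log2 fold change was -0.76 (SE 0.13, 95% interval -1.03 to -0.48, edgeR adjusted p 0.0028).

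The fall of Ppargc1a was called in 16 of 16 alternative fits, with values between -0.81 and -0.60 on the log2 scale and an adjusted p between 2.13e-06 and 0.0292. It was -0.60 without control 4 and mutant 8, the libraries with almost no Y-linked counts, and -0.74 without controls 1 and 4. Other genes cover 7.69% of its span, and none of its exons.

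**Figure D2:**
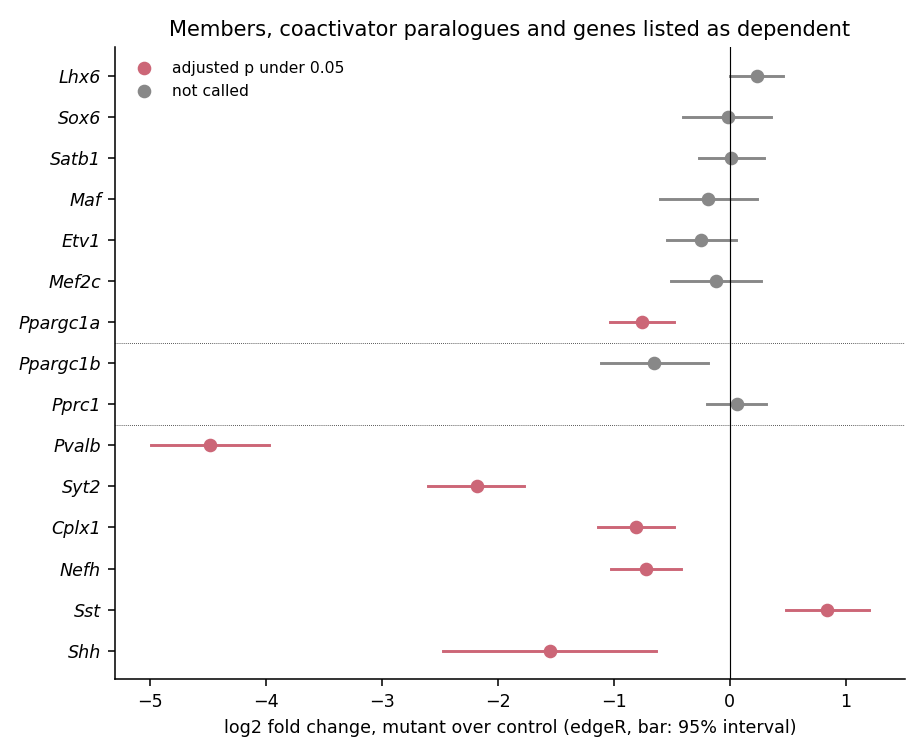
Log2 fold change of mutant over control (x axis) with its 95% interval for the 7 tested regulators (top), the 2 paralogues of Ppargc1a (middle) and genes listed as dependent on Ppargc1a or Lhx6 that were called (Pvalb, Syt2, Cplx1, Nefh, Sst and Shh, bottom). Red marks an adjusted p under 0.05. Ppargc1a (-0.76) is the only red point among the 7 regulators.

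The fall of Ppargc1a was also present relative to each of the other tested regulators in the same libraries. All 6 ratios share the same Ppargc1a values, so they describe the same fall and are not separate evidence for it. The log2 ratio of Ppargc1a to Satb1 was -0.89 to -0.80 in controls and -1.79 to -1.44 in mutants. The ratio to Lhx6 was 0.13 to 0.54 in controls and -0.82 to -0.47 in mutants. In all 6 ratios every mutant was below every control, with mean differences of -0.99 (Lhx6), -0.76 (Satb1), -0.75 (Sox6), -0.66 (Mef2c), -0.61 (Maf) and -0.51 (Etv1). Each of these 6 had an exact permutation p of 0.0571 (two-sided, 35 splits, 0.0571 after adjustment over the 6), which is the smallest that 4 against 3 libraries can give.

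Ppargc1a belongs to a family with Ppargc1b and Pprc1, which encode the other PGC-1 coactivators. Ppargc1b was at 91.8, 139.3, 132.4 and 205.4 CPM in controls and 100.5, 87.3 and 84.2 CPM in mutants, with mutant 6 above control 1. Its log2 fold change of -0.65 (SE 0.21) was not called (edgeR adjusted p 0.0794), but it passed in 5 of 16 alternatives, among them DESeq2 (-0.65, adjusted p 0.041), limma-voom (-0.60, adjusted p 0.00235) and the fit without control 1 (-0.80, adjusted p 0.00372). The Ppargc1a to Ppargc1b ratio overlapped between the groups, with a difference of -0.16 (exact permutation p 0.571, two-sided), so a difference between the 2 coactivator genes was not shown. Pprc1 was at 40.7 ± 3.51 and 42.4 ± 3.37 CPM (log2 fold change 0.06, edgeR adjusted p 0.845), and the ratio of Ppargc1a to it did not overlap (difference -0.81, exact permutation p 0.0571, 0.114 adjusted over the 2 paralogues).

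**Figure D3:**
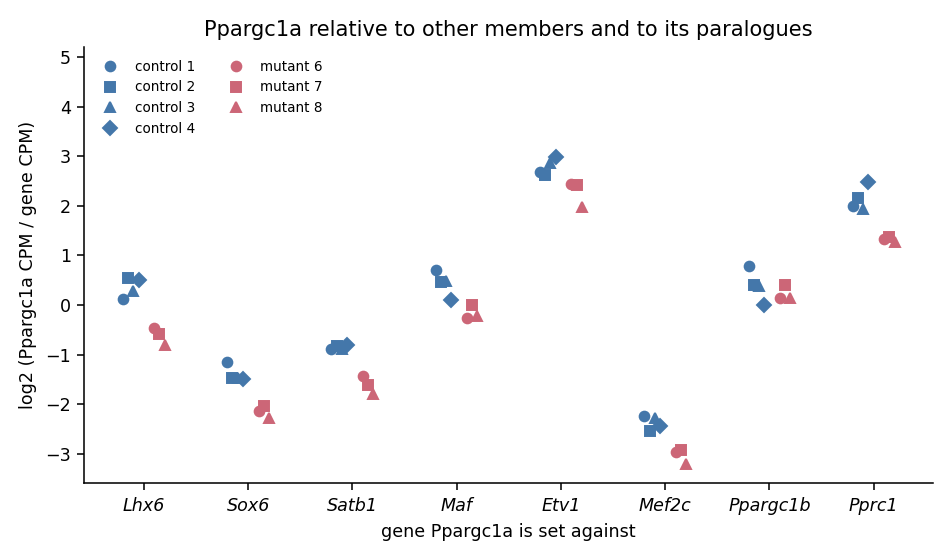
Log2 ratio of the CPM of Ppargc1a to that of 8 genes (x axis) in each library, 4 controls in blue and 3 mutants in red. Mutants lie below controls against the 6 other tested regulators and against Pprc1, whereas against Ppargc1b the groups overlap (0.00 to 0.78 in controls, 0.14 to 0.41 in mutants).

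Genes known to need Ppargc1a in cortical interneurons fell too. All 4 of 4 listed genes were called lower (median log2 fold change -1.50, where 4.78% of all tested genes were called lower), in 16 of 16 alternatives each. This list overlaps with markers already known to fall in these libraries, so its direction is a description. Pvalb, the calcium-binding protein that names the class, was at 44.0, 35.7, 36.3 and 47.8 CPM in controls and 2.58, 1.28 and 1.56 CPM in mutants (log2 fold change -4.48, SE 0.23, edgeR adjusted p 7.63e-07). Syt2, a fast synaptic calcium sensor, was at 51.9, 54.3, 56.8 and 85.6 CPM in controls and 13.67, 12.01 and 15.3 CPM in mutants (-2.18, SE 0.19, edgeR adjusted p 3.55e-05).

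The other 2 listed genes fell by an amount close to that of Ppargc1a. Cplx1, which encodes complexin 1 of the release machinery, was at 494.2, 346.9, 362.7 and 385.5 CPM in controls and 204.6, 242.2 and 233.2 CPM in mutants (-0.81, SE 0.15, edgeR adjusted p 0.00534). Nefh, the heavy neurofilament subunit, was at 37.9, 43.1, 40.8 and 44.3 CPM in controls and 28.2, 20.4 and 26.9 CPM in mutants (-0.72, SE 0.14, edgeR adjusted p 0.00625). No mutant reached a control for any of the 4. As a percent of the control mean, the mutant mean was 60.7 for Nefh, 57.0 for Cplx1, 22.0 for Syt2 and 4.42 for Pvalb.

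**Figure D4:**
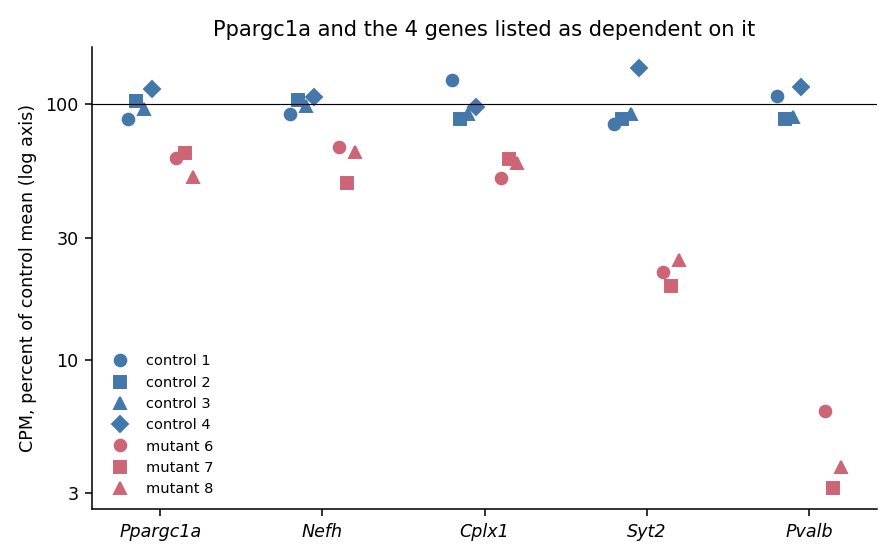
CPM of Ppargc1a and the 4 genes listed as dependent on it, as percent of the control mean (y axis, log scale), in each library. Mutant means are 59.2% for Ppargc1a, 60.7% for Nefh, 57.0% for Cplx1, 22.0% for Syt2 and 4.42% for Pvalb, and no mutant point reaches a control point.

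Fewer parvalbumin nuclei and less of these transcripts per nucleus cannot be told apart in bulk libraries. Of 11 parvalbumin markers 5 were called lower and 1 higher, where 4.78% of all tested genes were called lower and 4.63% higher. The summed level of the 11 overlapped, at 4600 to 7290 CPM in controls and 5750 to 7000 CPM in mutants. Most of that sum came from Erbb4 and Kcnc2, so it says little of the other markers. Kcnc2 was at 1463 ± 363.3 and 1821 ± 110.6 CPM and was not called in the main fit (0.32, edgeR adjusted p 0.43). Besides Pvalb and Syt2, those lower were Kcnc1 (-1.40, edgeR adjusted p 0.000296), Akr1c18 (-1.82) and Kcnab3 (-1.08, with 33.9% of its span shared). Lgi2 was higher (0.49, adjusted p 0.0222), a call lost without control 3, mutant 6 or mutant 7 (0.44 to 0.52, adjusted p 0.0589 to 0.127). Erbb4, the receptor tyrosine kinase with the highest level of the list, was at 3304 ± 708.9 and 3957 ± 493.5 CPM and was not called (0.26, adjusted p 0.579). The part of any change in class proportions in the Ppargc1a result was not tested.

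Partners and respiratory targets of PGC-1α were lower in part. Of 13 tested genes 3 were called lower, where 4.78% of all tested genes were, and 0 higher (median log2 fold change -0.29). An unadjusted p under 0.05 was found for 5 of 13, against 22.5% of all tested genes. The nuclear receptor Esrrb was at 3.96, 3.85, 6.99 and 11.4 CPM in controls and 2.58, 1.56 and 2.11 CPM in mutants (-1.64, edgeR adjusted p 0.0232). Idh3a, a subunit of a citric acid cycle enzyme, went from 143.7 ± 24.5 to 98.6 ± 9.24 CPM (-0.54, edgeR adjusted p 0.0305), and Sod2, the mitochondrial superoxide dismutase, from 107.2 ± 10.3 to 81.3 ± 5.13 CPM (-0.40, adjusted p 0.0408).

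None of these 3 calls held in every fit without 1 library. Esrrb was not called without control 3 or any 1 mutant (-1.82 to -1.47, adjusted p 0.0582 to 0.124) or without control 4 and mutant 8 (-1.24, adjusted p 0.0667), and Idh3a was not called without control 2, control 3 or any 1 mutant (-0.59 to -0.46, adjusted p 0.0786 to 0.171). Sod2 was called in 8 of 16 alternatives only. It lost its call without the same 5 libraries (-0.43 to -0.35, adjusted p 0.0849 to 0.185), without control 4 and mutant 8 (-0.37, adjusted p 0.0815), with upper-quartile factors (-0.38, adjusted p 0.0516) and without the low-count filter (-0.40, adjusted p 0.0507). Esrra (-0.28, adjusted p 0.162) and Esrrg (-0.78, adjusted p 0.11), which encode the other estrogen-related receptors, were not called in the main edgeR fit. Esrrg was called in 4 of 16 alternatives (-0.98 to -0.39 over all 16) and Esrra in 2 (-0.39 to -0.19). The transcription factors Tfam (-0.06) and Nrf1 (0.09) were not called in any fit.

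Genes listed as dependent on Lhx6 did not move in 1 direction. Of 9 tested genes 2 were called lower and 2 higher, where 4.78% of all tested genes were called lower and 4.63% higher. The median log2 fold change of the 9 was -0.02. This list shares Pvalb with the Ppargc1a list and holds Sox6 and Satb1, so its counts are not separate from those above. Pvalb was lower, while Sst, the peptide of the other class of the lineage, was higher: it was at 330.9, 265.3, 306.7 and 218.5 CPM in controls and 429.0, 564.8 and 511.0 CPM in mutants (0.84, SE 0.16, edgeR adjusted p 0.00682). Without mutant 7 the call of Sst was lost (0.75, adjusted p 0.0551).

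Shh, a secreted morphogen, was lower (-1.55, edgeR adjusted p 0.0371) at 1.80 ± 0.416 and 0.609 ± 0.258 CPM, where other genes cover 86.0% of its span, and lost its call without control 1, control 3 or any 1 mutant (-1.79 to -1.22, adjusted p 0.0561 to 0.173), without controls 1 and 4 (-1.31, adjusted p 0.101) and without control 4 and mutant 8 (-1.21, adjusted p 0.169). The chemokine receptors Ackr3 (-0.46) and Cxcr4 (1.18), and Sox6 and Satb1, were not called in the main edgeR fit. Cxcr4 was called in 3 of 16 alternatives (0.82 to 1.53 over all 16), and Ackr3, Sox6 and Satb1 in none.

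Of 9 somatostatin markers 3 were called higher (Sst, Calb1 at 1.62 and Crhbp at 1.03) and Hpse was called lower (-1.09, edgeR adjusted p 0.00344). Over all tested genes 4.63% were called higher and 4.78% lower. The summed level of the 9 was 1450 to 1840 CPM in controls and 2370 to 2780 CPM in mutants. Reln, the most abundant of them, was not called in the main fit (0.43, edgeR adjusted p 0.162). It was called in 4 of 16 alternatives (0.34 to 0.60 over all 16). In libraries where Pvalb and Sst changed in opposite directions, Sox6 and Satb1, which both classes of neurons share, lay within their control range in every mutant.

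The other regulators of the ventral forebrain were mostly not called. Of 18 listed genes 11 were tested, and 1 was called higher and 0 lower, where 9.42% of all tested genes were called. The distal-less genes Dlx2 (0.16) and Dlx5 (0.26), Zeb2 (0.15) and Sp9 (-0.29) were not called. Dlx1 and Dlx6 lie wholly inside other genes and Gbx2 in part, and these 3 are listed at 0.

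Paralogues of the members showed no call in edgeR, 0 of 16 tested, with 3 at an unadjusted p under 0.05 (22.5% of all tested genes were), 1 call in DESeq2, which called 11.2% of all genes it tested, and 3 in limma-voom. Mafg was at 225.0 ± 13.8 and 219.3 ± 6.87 CPM (-0.04), and Sox5, which acts with Sox6, was at 146.3, 246.8, 230.5 and 435.1 CPM in controls and 222.2, 170.5 and 158.2 CPM in mutants (-0.53, edgeR adjusted p 0.306). Sox5 showed the same order as Sox6 and Maf in controls, lowest in control 1 and highest in control 4. Alternatives called Sox5 in 2 of 16 fits (-0.72 to -0.08 over all 16). Etv4 and Etv5 (-0.63 and 0.11) and Mef2a and Mef2d (0.16 and -0.07) were not called.

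Cofactors that bind LIM-homeodomain proteins gave 0 calls among 8 tested genes in edgeR and in DESeq2. In limma-voom 2 were called, where 19.1% of all tested genes were. An unadjusted p under 0.05 (edgeR) was found for 3 of 8, against 22.5% of all tested genes. These were Lmo1 (1.02, p 0.0161), Ssbp4 (-0.35, p 0.0185) and Lmo4 (-0.34, p 0.0445), each with CPM ranges that did not overlap. Of these, only Ssbp4 was called in any alternative fit (3 of 16). Ldb1, the adaptor that Lhx6 and Lhx8 bind, was at 77.75 ± 5.199 and 77.25 ± 2.934 CPM (-0.01, edgeR adjusted p 0.974), a value whose sign turned to 0.01 with upper-quartile scaling. Ssbp2 (-0.15) and Lmo3 (0.08) were not called.

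Class IIa deacetylases, which repress MEF2 factors, had 1 of 4 genes called, where 9.42% of all tested genes were called. Hdac7 was at 67.8, 71.7, 71.0 and 62.4 CPM in controls and 94.97, 91.37 and 82.52 CPM in mutants (0.39, edgeR adjusted p 0.0318). It was not called without control 2, control 3 or any 1 mutant (0.35 to 0.46, adjusted p 0.063 to 0.15). Hdac4 (-0.41), Hdac5 (0.06) and Hdac9 (0.44) were not called in the main edgeR fit. Hdac4 was called in 5 of 16 alternatives (-0.50 to -0.34 over all 16), Hdac9 in 4 (0.27 to 0.77) and Hdac5 in none.

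Factors of the caudal ganglionic eminence, the source of other cortical interneurons, had 1 of 6 genes called, where 9.42% of all tested genes were. Npas1 was at 163.5, 144.7, 189.8 and 152.2 CPM in controls and 267.4, 240.4 and 260.0 CPM in mutants (0.65, SE 0.12, edgeR adjusted p 0.00527), called in 16 of 16 alternatives. Prox1 (0.17), Nr2f1 (-0.11), Nr2f2 (0.33), Sp8 (-0.26) and Npas3 (0.61) were not called in the main edgeR fit. Npas3 was called in 5 of 16 alternatives (0.44 to 0.97 over all 16), and the rest in none.

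Markers of other cells were read for the same libraries. Among cholinergic genes, the target class of Lhx8, Chat was lower (-1.64, edgeR adjusted p 0.0428) and Slc5a7 higher (1.23, adjusted p 0.00933), both under 11 CPM, and Slc18a3, which lies wholly inside another gene, is listed at 0. Chat lost its call without control 2, control 3, mutant 6 or mutant 8 (-1.78 to -1.17, adjusted p 0.0577 to 0.129) and without control 4 and mutant 8 together (-1.50, adjusted p 0.104), and Slc5a7 without mutant 7 (0.97, adjusted p 0.0675). Mog, of myelin, was higher (0.93, adjusted p 0.00545), while Mbp was at 95.36 ± 11.37 and 99.99 ± 7.287 CPM. Rgs9, a marker of striatal projection neurons, was higher (0.81, adjusted p 0.0104, lost without mutant 7 at 0.78, adjusted p 0.0601), and the other 5 striatal markers missed the threshold, at -0.03 to 0.03 on the log2 scale.

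In edgeR no other marker list of non-GABAergic cells had a called gene. The genes with the highest level in each were Cux2 of glutamatergic neurons (-0.17), Slc1a3 of astrocytes (0.04), Csf1r of microglia (0.61, edgeR adjusted p 0.055) and Cldn5 of endothelium (-0.35). Csf1r was called in 7 of 16 alternatives (0.59 to 0.67, adjusted p 0.016 to 0.0477), among them DESeq2, limma-voom and the fit without control 4. Slc1a3 (0.43, adjusted p 0.0427) and Slc17a6 of glutamatergic neurons (1.67, adjusted p 0.049) were each called in 1, the fit without controls 1 and 4. Gfap and P2ry12 are listed at 0 and lie wholly inside other genes.

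The spread of the regulators among controls followed the length of genes in part. Control 1 relative to control 4 had a median log2 ratio of 0.44 over 4563 genes shorter than 10 kb, -0.01 over 9356 genes of 10 to 100 kb and -0.70 over 2529 genes longer than 100 kb. Sox6 (-0.74), Mef2c (-0.61) and Ppargc1a (-0.38), all over 100 kb, and Maf (-0.99), which is shorter, were lower in control 1, whereas Lhx6 (-0.02) and Etv1 (-0.08) were not far from 0 and Satb1 was at -0.29. With an offset for gene length the log2 fold change of Ppargc1a was -0.76 (edgeR adjusted p 2.43e-05) and that of Lhx6 0.23 (adjusted p 0.0925).

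**Figure D5:**
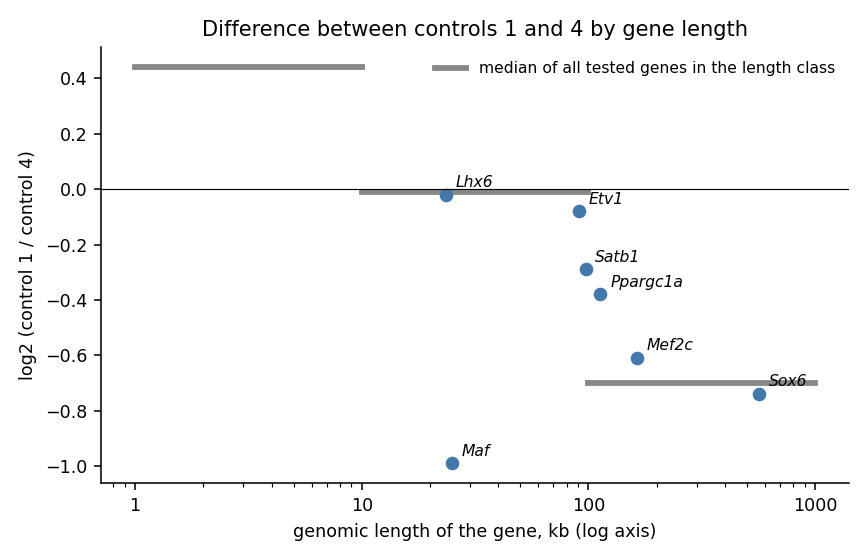
Log2 ratio of control 1 to control 4 (y axis) against genomic gene length (x axis, log scale, kb) for the 7 tested regulators, with gray bars at the median of all tested genes under 10 kb (0.44), from 10 to 100 kb (-0.01) and over 100 kb (-0.70). Maf (-0.99) lies far below the median of its length class.

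Levels between genes can be compared only per length. Reads appear to have been counted over whole gene spans, so CPM was divided by the kilobases of span that no other gene shares. On that scale the control levels were 6.00 ± 1.78 CPM per kb for Maf, 5.98 ± 0.369 for Lhx6 and 5.80 ± 1.13 for Mef2c (SD, n = 4), which did not differ beyond their spread. Satb1 followed at 4.09 ± 0.342, with a range that still overlapped that of Maf but not those of Lhx6 and Mef2c. Ppargc1a at 1.72 ± 0.195, Sox6 at 0.878 ± 0.179 and Etv1 at 0.285 ± 0.0302 CPM per kb were each separated from their neighbours, and Nkx2-1 (0.0794 ± 0.042) and Lhx8 (0.0102 ± 0.0105), with ranges that overlapped, were last.

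The order depends on the length used. Per kilobase of exon, Mef2c led at 60.2 CPM per kb, and Sox6 was at 32.5, Lhx6 at 29.0 and Ppargc1a at 27.3. The ranges of Sox6 (23.6 to 39.4), Lhx6 (26.4 to 30.3) and Ppargc1a (23.9 to 31.2) overlapped on this scale, so no order among these 3 is shown, while Mef2c (47.1 to 71.7) lay above them.

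For each tested regulator the genes with the most similar pattern over the 7 libraries were sought among 11792 genes, by Pearson r of log2 CPM, as a description. Ppargc1a was most like Vmp1 (r = 0.996) and Optn (r = 0.994), which were themselves called lower (-0.54, edgeR adjusted p 0.00968, and -0.51, adjusted p 0.0153). Lhx6 was most like Map2k1 (r = 0.983) and Slc5a7 (r = 0.971). Sox6 was most like Zfp64 (r = 0.992) and Shc3 (r = 0.99), Mef2c like Senp7 (r = 0.986), and Maf like Gm43175 and Ppm1h (r = 0.992 each). Satb1 was most like Purg (r = 0.982) and Klhdc10 (r = 0.969), and Etv1 like Sbds (r = 0.977) and Mbnl1 (r = 0.97). The 7 points share depth and the length trend between libraries, and the best of so many genes is high in any case.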

How the data were processed

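The deposited values are read counts per gene, whole numbers with no normalization that the labels record. Bowtie2 2.5.3 and the builds mm10 and GRCm38 are named, per the submitters' processing notes, and the counting program and its strand setting are not given in the sources used here. SMART-Seq v4 cDNA went into Nextera XT libraries, per the labels' protocols. PCR copies were not marked by molecular identifiers, and limits from read numbers cover counting error only. All 55450 identifiers matched GENCODE M21, the source of symbols and coordinates.

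In the deposited counts, 1351 of 1351 protein-coding genes whose span lies wholly inside other genes had no count in any library, also the 684 of them that share no exonic base, against 2900 of 11728 (24.7%) genes with an unshared span. This is the picture that counting over whole gene spans, with shared stretches left out and strand ignored, would give, and a 0 at such a gene says nothing of its expression.

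The tables of mutants 7 and 10 differed at 0 genes, which is below sampling noise. They entered as 1 sample, mutant 7. The planned comparison had 4 mutants. Which animal gave the counts is not known.

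The test was edgeR 4.0.16 (R 4.3.3) with filterByExpr by group (least count 10, least total count 15), TMM, robust glmQLFit and glmQLFTest with group as the only term, two-sided, and Benjamini-Hochberg adjustment over 16448 tested genes. The call threshold was an adjusted p of 0.05. The SE is the log2 fold change divided by the square root of F. A mean is given with the SD over libraries. A count of 0 allows up to 3 reads. Ratios of Ppargc1a to other genes were tested by exact permutation over 35 splits (scipy 1.17.1).

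The members and all 18 lists (8 of pathways, 10 of cell markers) were chosen with earlier results of these data known. Every member was named, every called gene of the lists, up to 3 of the highest genes of a pathway list without calls, the highest gene of each marker list, and the 2 genes most like each member with a mean of at least 5 CPM. Some of these genes are not reported here. Genes named beside these were chosen after their values were seen.

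Alternatives were DESeq2 1.42.0, limma 3.58.1 (voom with sample weights), RLE and upper-quartile factors, no filter, a filter at a mean of 1 CPM, an offset over gene length, an absolute log2 fold change over 1, and fits without libraries. The fits were tested on simulated data. Of 100 genes changed by 1 on the log2 scale, edgeR called 57, DESeq2 61 and limma-voom 55. Of 100 genes changed by 2, they called 91, 90 and 90, with 12, 24 and 12 false calls. The simulated counts held no length trend between libraries and fewer changed genes than were called in the data. These rates therefore need not hold for the real libraries.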

Additional observations from a re-analysis of the deposited data

Results flagged for a closer look

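Control 4 stood apart from the other 3 controls in 3 of 46 sets of control values examined, where chance alone marks about 1 in 20 sets (2.3 expected). Syt2, listed as dependent on Ppargc1a, was at 85.59 CPM in control 4 against 51.94 to 56.77 CPM in the other controls. The gap to its nearest neighbour took up more of the whole control range than the 95% limit for 4 samples allows. By the same measure Hpse, a somatostatin marker, was at 33.09 CPM in control 4 against 21.43 to 21.7 CPM. Ldb1, the LIM adaptor, was low in control 4, at 69.97 CPM against 79.81 to 80.78 CPM. None of the 9 regulators was marked in this way. Syt2 and Hpse were called lower in mutants also without control 4.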

How the results depend on the processing

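The fall of Ppargc1a kept its direction and its call in all 16 alternative fits, which leave out the rule on fold size, as did those of Pvalb, Syt2, Cplx1 and Nefh. The count of called genes, 1549 in edgeR, was 3147 with limma-voom, 2753 with the offset over gene length, 2778 without controls 1 and 4, 641 with an absolute log2 fold change over 1, and 734 to 2347 when single libraries were left out, with 734 without mutant 7 and 2347 without control 4. The fit without control 4 and mutant 8, the libraries with almost no Y-linked counts, was chosen after seeing the data and gave 1416.

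Lhx6 was past the threshold with limma-voom (0.27) and without controls 1 and 4 (0.29). Signs of regulators that were not called turned: without control 4 and mutant 8 Maf was at 0.09 and Sox6 at 0.11, and with single libraries left out Maf ran from -0.32 to 0.02, Satb1 from -0.05 to 0.06 and Sox6 from -0.15 to 0.08. Among other uncalled genes, Cldn5 was at 0.05 without controls 1 and 4, and Ldb1 at 0.01 with upper-quartile factors and with the length offset. With single libraries left out Ldb1 ran from -0.06 to 0.02 and Slc1a3 from -0.07 to 0.25. The causes were not tested.

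With limma-voom, which called 19.1% of all tested genes, the called genes were 2 of the ventral regulators, 3 paralogues, 2 LIM cofactors, 5 Ppargc1a partners and targets, 3 class IIa deacetylases and 2 caudal eminence factors. With DESeq2, which called 11.2% of the genes it tested, they were 1 paralogue and 2 class IIa deacetylases. The microglial gene Csf1r was called with both (0.59 and 0.61).

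No paired analysis was possible because the groups share no replicate number in the labels. Depth limits Nkx2-1 and Lhx8, with at most 8 reads in a library.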
